A study of Equus caballus with 2 samples.

Results

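The barcodes described here were shallow: each held fewer than 20000 UMIs, and less than 4% of those UMIs came from the 13 genes whose symbol starts with MT-, which are encoded in the mitochondrial genome. A UMI (unique molecular identifier) is a random tag that counts 1 captured RNA molecule, and a barcode marks the contents of 1 droplet. There were 441 such shallow barcodes among 9508, namely 276 of 4384 in the control library (6.30%, with an exact 95% interval of 5.59 to 7.06%) and 165 of 5124 in the TGF-β1 library (3.22%, 2.75 to 3.74). They held 0.610% and 0.652% of the UMIs of their libraries. They were set against the reference cells of the same library, which are the 3865 control and 4513 TGF-β1 barcodes with 20000 UMIs or more, 3500 genes or more and a mitochondrial share under 4%, the limits that the study's methods give. A further 205 and 438 barcodes were as shallow but had 4% or more mitochondrial UMIs, and are called high-mitochondrial barcodes.

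The cells were cultured fibroblasts from equine endometrium, the lining of the uterus. Passaged cells were kept on hydrogels coated with collagen, with serum withdrawn during the treatment, in both groups. After treatment and detachment, equal numbers of cells of 4 mares were pooled in each group. The control was untreated, and the other group had received human recombinant TGF-β1 at 10 ng/ml for 24 h. Cells were not assigned to mares here. Each treatment was 1 droplet library, so that every fold below compares summed counts of barcodes, has no replicate check, and carries no p-value. Intervals are exact binomial or exact conditional binomial 95% intervals. They cover counting error only and not the spread between cultures or mares.

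A droplet barcode with few UMIs can stand for a small or quiet cell, a cell that has lost RNA, a cell of another type with less RNA, or RNA free in the suspension. A high share of mitochondrial transcripts is the usual sign of a damaged cell, because RNA of the cytosol leaks out through a torn membrane while mitochondria stay behind. The shallow barcodes passed that check on damage and failed the one on depth. Fibroblasts of the endometrium build its collagen matrix, and TGF-β1 is the best known signal that turns them towards contractile, matrix-producing cells.

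The depth of the shallow barcodes differed between the libraries. In the control library the number of UMIs ran from 500 to 19713 with a median of 3149.5, and 171 of the 276 barcodes lay between 1000 and 5000. Among TGF-β1 barcodes it ran from 505 to just under the limit with a median of 7131, and 74 of the 165 had 10000 or more. The TGF-β1 barcodes therefore sat closer to the limit, and a pool of their counts was dominated by the deeper ones. The median number of genes was 1559 and 2616, and 249 and 96 barcodes had fewer than 3500 genes. The median mitochondrial share was 1.60% in the control and 1.53% in the TGF-β1 barcodes, against 1.47% and 1.21% in reference cells. The barcodes were chosen by their depth and mitochondrial share, so these values describe the choice.

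On either side of the limits the values were as follows. Of the control barcodes, 16 lay just inside the UMI limit, with 15000 UMIs or more and a median of 4348 genes, and 41 lay just outside it, with up to 25000 UMIs and a median of 4803 genes. The corresponding TGF-β1 barcodes numbered 47 and 114, with medians of 4426 and 4700 genes. Ribosomal protein genes took a median of 16.6% of UMIs just inside and 16.3% just outside in the control, but 11.9% and 15.4% in the TGF-β1 library, where actin and contraction genes took 4.06% and 5.85%. With a mitochondrial share of 3 to 4%, 28 control and 34 TGF-β1 barcodes were just inside that limit. Those just outside it, with 4 to 5%, numbered 11 and 31. Median ribosomal protein shares on the inner and outer side of the mitochondrial limit were 15.2% and 14.7% in the control and 7.41% and 4.54% with TGF-β1.

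**Figure D1:**
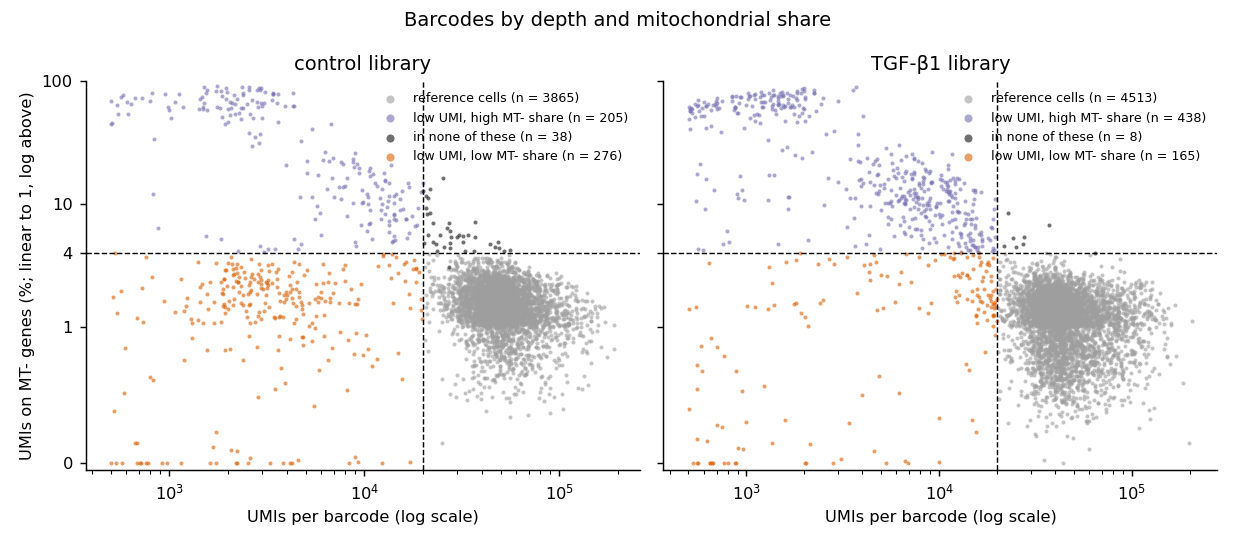
Each point is 1 barcode, with its UMIs on a log axis and the percent of its UMIs on mitochondrial genes, for the control (left) and TGF-β1 (right) libraries, coloured by set. The 276 control shallow barcodes gather between 1000 and 5000 UMIs, whereas 74 of the 165 TGF-β1 ones have 10000 or more.

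Once every barcode was thinned to 1000 UMIs, the shallow barcodes held about as many genes as the reference cells. In the control library the median was 665 genes against 618, with quartiles of 634 and 689 against 595 and 643, so the shallow barcodes had slightly more. For TGF-β1 it was 645 against 632, with quartiles of 597 and 676 against 609 and 655. Barcodes under 1000 UMIs could not be thinned, which left out 27 control and 31 TGF-β1 shallow barcodes. Of the barcodes of the 2 libraries, 6 had the same sequence in both, 3 of them were shallow in at least 1 library, and 1 was shallow in both. No shallow barcode was 1 base away from a reference barcode of its library.

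The shallow barcodes carried fibroblast transcripts. *VIM*, the intermediate filament of mesenchymal cells, had a UMI in 272 of 276 control and 156 of 165 TGF-β1 barcodes. *COL1A1*, which encodes a chain of type I collagen, had a UMI in 265 and 159, and *COL3A1* in 267 and 156. Over the 9 fibroblast markers (*VIM*, *COL1A1*, *COL1A2*, *COL3A1*, *DCN*, *LUM*, *PDGFRA*, *PDGFRB* and *THY1*), the share of all UMIs was 2.08% in control shallow barcodes against 2.17% in reference cells, and 2.39% against 2.18% in the TGF-β1 library. By depth the TGF-β1 share was 1.94% under 1000 UMIs, 1.66% from 1000, 1.96% from 5000 and 2.52% from 10000. Only the deepest of these bands lay above TGF-β1 reference cells. The control bands held 2.63%, 2.02%, 1.93% and 2.23%. The markers did not move together: with TGF-β1 *VIM* stood at 1449 CPM against 2240 and *COL3A1* at 7698 against 5583, and in the control at 3683 against 4399 and 5160 against 4456. Thinned to 1000 UMIs, *VIM* was found in 68.7% of TGF-β1 shallow barcodes (60.1 to 76.4) against 86.6% of reference cells, and in 95.6% (92.2 to 97.8) against 97.9% in the control. At least 3 of the 9 were detected in 273 of 276 and 160 of 165 barcodes.

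A minority were poor in these markers. Taking as the limit the first percentile of the reference cells, which was chosen after the data were seen, 23 control shallow barcodes (8.33%, 5.36 to 12.2) and 35 TGF-β1 ones (21.2%, 15.2 to 28.2) fell below it, against 1.01% and 1.02% of reference cells by construction. Shares that rest on few UMIs scatter more, and how far this accounts for the minority was not tested. Under 5000 UMIs, 17 of 198 control and 24 of 72 TGF-β1 barcodes fell below the limit. Among barcodes of 5000 UMIs or more, 6 of 78 and 11 of 93 did. Of the high-mitochondrial barcodes, 114 of 205 and 215 of 438 did. Below the lowest reference cell of their library lay 1 control and 14 TGF-β1 shallow barcodes, and 19 and 194 high-mitochondrial ones.

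The defining epithelial markers, which would mark cells of the luminal or glandular lining, were at or near 0. *CDH1*, which encodes the adhesion protein of epithelial junctions, had 0 UMIs in the 276 control shallow barcodes, which allows up to 2.30 CPM (counts scaled to a total of 1000000 UMIs) and up to 1.09% of such barcodes with a UMI, which at this depth does not limit the share of cells that express the gene. Of the 3865 reference cells, 6 had 1 UMI. With TGF-β1 it had 3 UMIs in 2 of 165 shallow barcodes (2.05 CPM), against 4 UMIs in 4 of 4513 reference cells (0.018 CPM). *EPCAM*, another epithelial surface protein, had 1 UMI in the control and 0 in the TGF-β1 shallow barcodes. Of the 15 epithelial markers listed in the files, 6 and 8 had a UMI. Thinned to 1000 UMIs, 4.82% of control shallow barcodes (2.51 to 8.27) had a UMI of any of them against 9.11% of reference cells. The TGF-β1 shares were 2.99% (0.819 to 7.47) and 1.46%.

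The 66 control and 38 TGF-β1 epithelial UMIs were spread over 36 and 23 shallow barcodes. Most were of *KRT8* (39 UMIs in 20 barcodes) and *KRT7* (23 in 18) in the control, and of *SPINT1* (13 in 13) and *KRT7* (12 in 5) in the TGF-β1 library. Several epithelial markers met in 1 barcode of each library. A TGF-β1 barcode of 1807 UMIs and 1159 genes held 2 UMIs of *CDH1*, 2 of *GRHL2*, which encodes a transcription factor of epithelial cells, and 1 each of the tight junction genes *CLDN4* and *CLDN7*. It had 2 UMIs of fibroblast markers, or 1107 CPM, against a median of 19787 CPM over the TGF-β1 shallow barcodes. The other TGF-β1 barcode with *CDH1* had 1 UMI of it among 13849 and no other epithelial marker. In the control library, a barcode of 1728 UMIs held 1 UMI of *EPCAM*, 3 of *KRT8* and 2 of *KRT7*, with 10 UMIs of fibroblast markers, or 5787 CPM against a median of 20436. No other shallow barcode had 3 or more epithelial markers.

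The defining endothelial and leukocyte markers were at or near 0. Of 15 endothelial markers, 3 had a UMI in the control and 4 in the TGF-β1 shallow barcodes, and no barcode had more than 1 and 2 of them. *PECAM1* and *CDH5*, which encode junction proteins of endothelial cells, had 0 UMIs in both libraries, and *VWF* had 0 and 2. Most of the endothelial UMIs, 14 of 16 and 30 of 38, were of the transcription factor gene *ERG*. *PTPRC*, the leukocyte marker CD45, had 0 UMIs in both. Of 20 immune markers, 5 and 3 had a UMI, and these were chiefly *CD68*, a lysosomal protein, with 44 and 88 UMIs and *CD14* with 23 and 31. *CD68* stood at 33.7 CPM against 42.6 in control reference cells and 60.2 against 43.1 with TGF-β1, and *CD14*, a lipopolysaccharide receptor, at 17.6 against 13.99 and 21.2 against 9.75. The 20 markers summed to 58.2 CPM against 63.9 in the control and 84.9 against 58.5 with TGF-β1. The 3 barcodes with 3 immune markers also held fibroblast markers, with 613 UMIs of these in the control barcode and 103 and 413 in the TGF-β1 barcodes. The T cell, B cell and mast cell genes *CD3E*, *CD2*, *MS4A1* and *KIT* had 0 UMIs. Thinned to 1000 UMIs, 1.20% of control shallow barcodes had any endothelial UMI against 1.29% of reference cells, and 4.42% had any immune UMI against 6.26%. The TGF-β1 shares were 2.99% against 2.84% and 5.22% against 5.98%. The immune share depended on the depth of thinning. At 500 UMIs it was 3.64% against 2.68% with TGF-β1 and 2.17% against 2.82% in the control. At 2000 UMIs, 24 of 119 TGF-β1 shallow barcodes (20.2%, 13.4 to 28.5) had an immune UMI against 10.5% of reference cells, while in the control it was 12.1% (8.01 to 17.4) against 11.8%.

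The lists of other lineages differed in how widely they were found. None of the 5 Schwann and neural markers had a UMI. *HBB*, a haemoglobin chain, had 0 UMIs, and *HBA2* had 53 UMIs in 43 control barcodes and 144 in 20 TGF-β1 barcodes, of which 108 were in 1 barcode of 19877 UMIs with 239 fibroblast marker UMIs. *DES* and *MYH11*, which encode muscle proteins, had 672 and 134 UMIs in the control and 559 and 50 in the TGF-β1 shallow barcodes. *DES* was found in 206 and 107 barcodes, at 514 CPM against 646 in control reference cells and 383 against 569 with TGF-β1. *MYH11* was found in 84 and 22 barcodes, at 103 CPM against 42.9 and 34.2 against 25.3. Among pericyte genes, *RGS5* had 81 UMIs in 61 control and 72 in 47 TGF-β1 barcodes, at 62.0 CPM against 51.7 and 49.3 against 61.1. *CSPG4* had 3 UMIs in each library, *MCAM* had 3 and 4, and *NOTCH3*, *KCNJ8* and *ABCC9* had 0. A UMI of any of these 8 pericyte and smooth muscle genes was found in 228 control and 125 TGF-β1 shallow barcodes, and in 3860 of 3865 and 4511 of 4513 reference cells. *WT1*, a mesothelial marker that the endometrial stroma also uses, had 79 and 60 UMIs in 62 and 41 barcodes, at 60.5 CPM against 40.3 and 41.1 against 40.7, while *LRRN4* and *CALB2* had 0.

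Ribosomal protein transcripts, which are abundant messages of the cytosol, took a smaller share in shallow barcodes than in reference cells. In the control library they made up a median of 14.8% of the UMIs of a shallow barcode (quartiles 12.6 and 16.8%) against 17.8% in a reference cell (16.01 and 19.5%) and 3.06% in a high-mitochondrial barcode. The TGF-β1 medians were 12.8% (6.30 and 16.6%), 15.6% (14.0 and 17.1%) and 2.93%. The spread was wide, from 0.957 to 29.0% in control and from 1.07 to 22.6% in TGF-β1 shallow barcodes. The bulk of the shallow barcodes thus lay close to the reference cells and far from the high-mitochondrial barcodes.

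**Figure D2:**
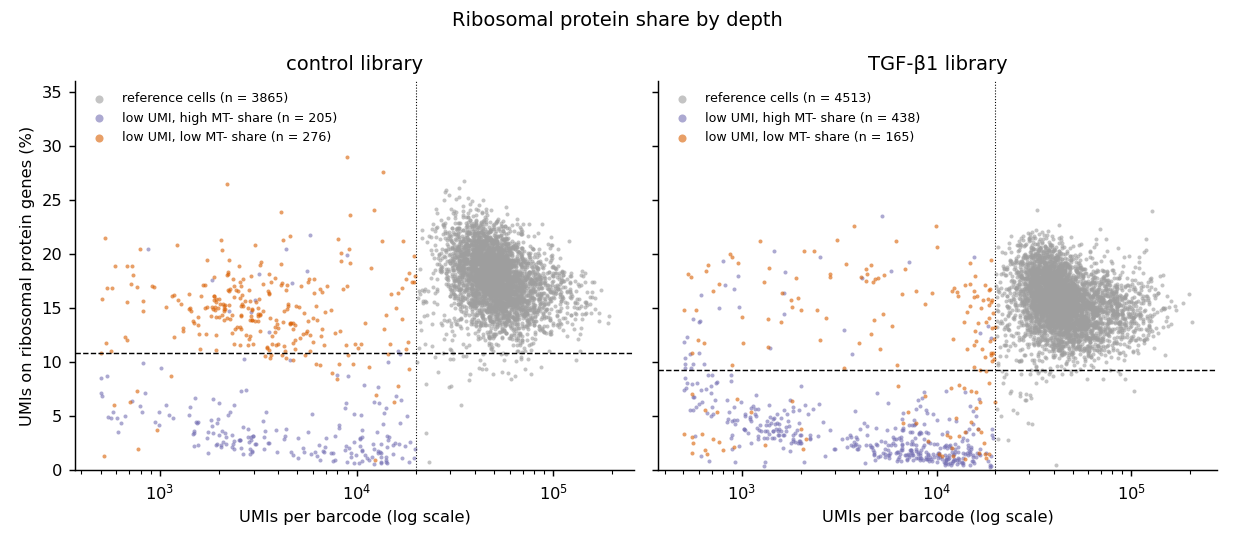
Percent of UMIs on cytosolic ribosomal protein genes in each barcode against its UMIs on a log axis, by set and library. Lines mark the first percentile of the reference cells and the UMI limit. Medians of the shallow barcodes are 14.8% (control) and 12.8% (TGF-β1), between 17.8 and 15.6% in reference cells and 3.06 and 2.93% in high-mitochondrial barcodes, and the TGF-β1 shallow barcodes have a second group at low values.

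A part of the TGF-β1 shallow barcodes had as little ribosomal protein RNA as the high-mitochondrial ones. With the first percentile of the reference cells as the limit (10.9% of UMIs in the control and 9.26% in the TGF-β1 library, chosen after the data were seen), 29 of 276 control shallow barcodes (10.5%, 7.15 to 14.7) and 56 of 165 TGF-β1 ones (33.9%, 26.8 to 41.7) lay below it. Of the high-mitochondrial barcodes, 93.7% and 91.8% did. With TGF-β1 the share was higher in each depth band, with intervals that overlapped: 15 of 31 barcodes under 1000 UMIs, 6 of 41 with 1000 up to 5000, 6 of 19 with 5000 up to 10000 and 29 of 74 with 10000 or more. The control counts in these bands were 7 of 27, 7 of 171, 8 of 47 and 7 of 31. The poor TGF-β1 barcodes had a median mitochondrial share of 2.45%, against 1.44% in the other shallow ones, and in the control library 0.923% against 1.68%.

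The TGF-β1 shallow barcodes poor in ribosomal protein RNA were rich in matrix transcripts. Collagen chains took 3.74% of their UMIs, against 1.76% in the other shallow barcodes, 2.10% in reference cells and 3.57% in high-mitochondrial barcodes. *COL12A1*, which encodes a collagen that binds to fibrils, stood at 2552 CPM against 549 in the other shallow barcodes, 1067 in reference cells and 3352 in high-mitochondrial barcodes. For *STAC* these levels were 412 against 69.8, 139 and 461, and for *HMCN1*, a giant matrix protein, 319.8 against 49.98, 93.1 and 258. Complement factor *CFD* was lower, with 14.0 CPM against 250 in the other shallow barcodes, 35.0 in reference cells and 10.9 in high-mitochondrial barcodes. These genes were taken from those that differed most between the poor and the other shallow barcodes, so the difference is a description. *HBA2*, which differed more than these in the upward direction, stood at 226 CPM against 32.3, 41.3 and 12.4, with 108 of its 113 UMIs in 1 barcode. In the control library the 29 poor barcodes had 2.16% of their UMIs on collagen chains against 1.71%, and 2.71% on actin and contraction genes against 4.17%.

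Few shallow barcodes had no mitochondrial UMI at all: 22 in the control (7.97%, 5.06 to 11.8) and 16 in the TGF-β1 library (9.70%, 5.64 to 15.3), and no reference cell. Their median depth was 1378.5 and 779.5 UMIs. Actin and contraction transcripts took 6.31% of their UMIs in the control, against 3.85% in the other shallow barcodes and 4.60% in reference cells. With TGF-β1 these transcripts took 6.54% against 4.41% and 6.32%, so that value was near the reference level. These barcodes were poor in collagen chains, at 1.03% against 1.81% and 1.71%, and at 1.37% against 2.45% and 2.10% with TGF-β1. In the control library ribosomal protein transcripts took 19.2% of the UMIs of these barcodes, against 14.6% in the others and 17.4% in reference cells. In the same order, glycolysis took 1.25%, 0.699% and 0.953%, and genes of the nuclear pore, lamina and chromatin 0.115%, 0.251% and 0.210%. In the same library *TIMP1*, an inhibitor of matrix proteases, stood at 8743 CPM against 1878 in the other shallow barcodes, and *DPF2*, which encodes a chromatin regulator, at 2647 against 28184. Of the 479 *TIMP1* UMIs, 169 were in 1 barcode, and reference cells stood at 3196 CPM. *DPF2* had 145 UMIs in these 22 barcodes, of which 108 were in 1 barcode, and its level was 22657 CPM in reference cells and 70972 in high-mitochondrial barcodes.

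Across genes, the pooled shallow barcodes resembled the reference cells. Of 8047 genes averaging 10 CPM or more over the 4 pools, 5651 (70.2%) were within 1.5-fold of the reference cells in both libraries. More than 2-fold higher in the shallow barcodes were 310 genes (3.85%) in the control and 294 (3.65%) in the TGF-β1 library, and more than 2-fold lower were 36 (0.447%) and 20 (0.249%). In both libraries 81 genes (1.01%) were higher and 1 (0.0124%) was lower. Counts were thus uneven in direction, with 89.6% and 93.6% of the calls on the higher side, which became 65.1% and 69.7% when the pools were scaled by median-of-ratios size factors. The median log2 ratio over all genes was 0.12 and 0.20, and -0.07 and -0.08 with that scaling. Of the genes called lower, 6 and 3 rested on 3 UMIs or fewer in the shallow barcodes, and 4 and 0 had a counting interval wholly beyond 2-fold. The minimum of 10 CPM averages over the shallow pools too, so a gene could reach it through its level there. The counts of higher genes include such genes. These comparisons share their libraries with the choice of the barcodes and are given as a description.

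**Figure D3:**
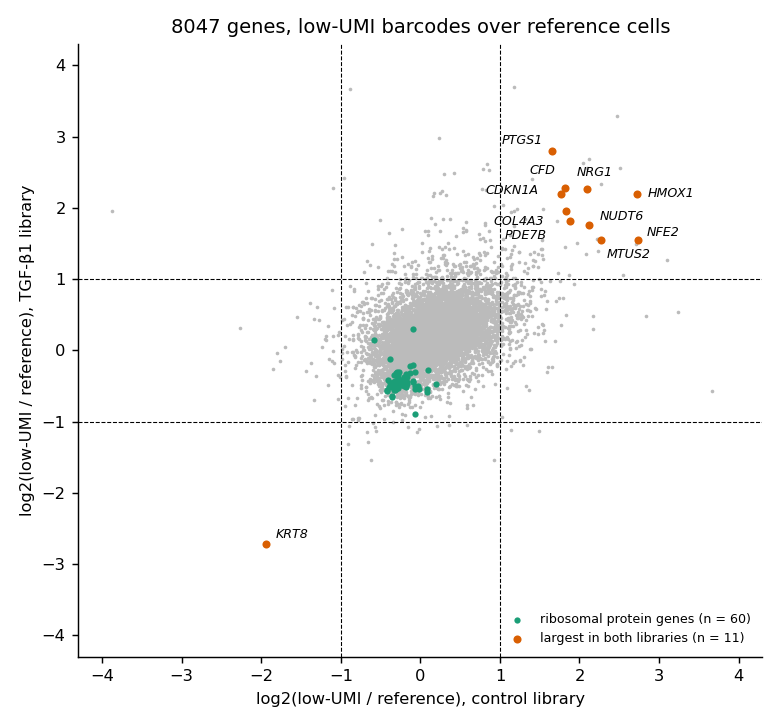
Log2 ratio of CPM in shallow barcodes over reference cells for each of the 8047 genes, control on the x axis and TGF-β1 on the y axis, with lines at 2-fold and the named genes labelled; 2 genes outside the range and 3 genes at 0 UMIs are not drawn. Most points lie near 0 in both libraries, and the labelled genes lie beyond 2-fold in both.

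*HMOX1* and *CDKN1A*, which respond to cell stress, were among the genes higher in both libraries, and in the control most of their UMIs came from 1 barcode. *HMOX1* encodes the haem-degrading enzyme of the oxidative stress response and stood at 204 CPM against 30.9 in control reference cells (log2 ratio 2.72, 2.54 to 2.90) and at 93.8 against 20.4 in the TGF-β1 library (2.20, 1.94 to 2.45). Of its 267 control UMIs, 236 came from 1 barcode, and without the highest barcode the log2 ratio was -0.38. In TGF-β1 the highest barcode held 40 of 137 UMIs, and without it the log2 ratio was 1.70. *CDKN1A*, the cell cycle inhibitor p21 and a target of p53, stood at 208 CPM against 61.0 and at 216 against 47.2. Single barcodes held 167 of its 272 control UMIs and 129 of its 315 TGF-β1 UMIs, and without the highest barcode the log2 ratio was 0.40 in the control and 1.43 with TGF-β1. In TGF-β1 barcodes under 10000 UMIs it was 0.12.

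Both barcodes had a stress profile of their own. The control barcode with the most *CDKN1A* was the one with the most *HMOX1*. It held 15540 UMIs and 4087 genes, and also 27 UMIs of *DDIT3*, a transcription factor of the unfolded protein response (1737 CPM against 127 in reference cells), and 15 of the stress cytokine gene *GDF15* (965 against 1.26). It had 200 UMIs of fibroblast markers but none of *VIM*. The TGF-β1 barcode with the most *CDKN1A* held 13849 UMIs, among them 115 of the DNA damage response gene *GADD45A* (8304 CPM against 214), 30 of *MDM2*, the ubiquitin ligase that p53 induces (2166 against 40.5), and 22 of *GDF15* (1589 against 0.55). It had 6 UMIs of fibroblast markers, or 433 CPM. In that barcode *CDH1* had its 1 UMI as described above.

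*MDM2* was higher also over the whole pools, with 96.5 CPM against 43.2 (log2 ratio 1.16, 0.89 to 1.41) in the control, where its highest barcode held 4.76% of its UMIs. With TGF-β1 it stood at 82.2 CPM against 40.5 (1.02, 0.75 to 1.28), and there the highest barcode held 30 of its 120 UMIs, without which the log2 ratio was 0.60. In the control it was 1.09 without the highest barcode. Of 11 p53 and apoptosis genes tested, 3 were more than 2-fold higher in each library and none lower, against 3.85% and 3.65% of all genes higher. Leaving out the highest barcode of each gene, 1 remained over 2-fold in each library, *MDM2* in the control and *CDKN1A* with TGF-β1. Over all 8047 genes, 40 of the 81 that were higher in both libraries remained so in that setting. The median log2 ratio of these 11 was 0.19 and 0.66, against 0.12 and 0.20 over all genes.

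*NFE2*, *NUDT6*, *MTUS2* and *PDE7B* were also more than 2-fold higher in both libraries. *MTUS2* and *PDE7B* were under 10 CPM in reference cells of both libraries and reached the minimum only through the shallow pools. *NFE2* encodes a transcription factor best known from the blood lineage and had 122 UMIs in 87 control barcodes and 50 in 35 TGF-β1 barcodes, with no more than 5 and 3 in any of them. It stood at 93.4 CPM against 14.1 (log2 ratio 2.73, 2.46 to 2.99) and at 34.2 against 11.7 (1.55, 1.11 to 1.95). *NUDT6* had 92 UMIs in 69 control and 64 in 30 TGF-β1 barcodes, at 70.4 CPM against 16.2 and 43.8 against 13.0. *MTUS2*, whose protein binds microtubules, had 27 UMIs in 25 and 21 in 18 barcodes, at 20.7 CPM against 4.29 and 14.4 against 4.92. *PDE7B*, a phosphodiesterase that degrades cyclic AMP, had 42 UMIs in 25 and 37 in 17 barcodes, at 32.2 CPM against 8.76 and 25.3 against 7.19. The highest barcode held at most 24.3% of the UMIs of these 4 genes. In high-mitochondrial barcodes they were also above reference cells, with *NFE2* at 33.7 (control) and 44.8 CPM (TGF-β1), *NUDT6* at 46.5 and 61.1, *MTUS2* at 20.99 and 35.7 and *PDE7B* at 38.98 and 18.9. Of 15 alternatives, *NFE2* stayed over 2-fold in all in both libraries. In TGF-β1 *NUDT6* stayed so in 13, with a lowest log2 ratio of 0.26, and *MTUS2* in 12, with a lowest of 0.57. *PDE7B* did so in 14 in the control, with a lowest of 0.88.

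*CFD*, *NRG1*, *COL4A3* and *PTGS1* were the other named genes higher in both libraries. *CFD*, which encodes complement factor D, had 1013 UMIs in 164 control barcodes, with 775 CPM against 220 (log2 ratio 1.82, 1.73 to 1.91), and 247 in 22 TGF-β1 barcodes, with 169 against 35.0 (2.27, 2.09 to 2.46). In the TGF-β1 library 79 of the 247 came from 1 barcode, and in shallow barcodes under 10000 UMIs the log2 ratio was -0.45. The growth factor gene *NRG1*, whose protein binds ERBB receptors, stood at 89.6 CPM against 20.9 and 78.0 against 16.2. In the control its 117 UMIs were spread over 51 barcodes with no more than 9 in any, while in the TGF-β1 library 69 of 114 were in 1 barcode, without which the log2 ratio was 0.93. With TGF-β1 *NRG1* stayed over 2-fold in 12 of 15 alternatives, with a lowest log2 ratio of 0.45. *COL4A3*, a basement membrane collagen chain, stood at 17.6 CPM against 4.95, with 23 UMIs in 11 barcodes and 7 in 1 of them, and at 58.2 against 14.99 with 85 UMIs in 22 barcodes. In the control it stayed over 2-fold in 12 of 15 alternatives, with a lowest log2 ratio of 0.34, and in TGF-β1 in 14, with a lowest of 0.55. *PTGS1*, the constitutive cyclooxygenase, stood at 8.42 CPM against 2.67, with 11 UMIs in 4 barcodes, and at 32.2 against 4.65 with 47 UMIs in 23 barcodes. It too reached the minimum for testing only through the shallow pools. Its control ratio stayed over 2-fold in 13 of 15 alternatives, with a lowest of 0.38. High-mitochondrial barcodes held *NRG1* at 71.96 and 56.0 CPM and *COL4A3* at 40.5 and 29.8, above reference cells, but *CFD* at 126 and 10.9 and *PTGS1* at 0.75 and 2.91, below them.

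*KRT8*, a keratin of simple epithelia that cultured stromal cells also express, was the 1 gene more than 2-fold lower in both libraries. It had 39 UMIs in 20 control shallow barcodes (29.9 CPM against 114 in reference cells, log2 ratio -1.94, -2.43 to -1.49). Among TGF-β1 barcodes it had 1 UMI (0.68 CPM against 4.48, log2 ratio -2.71, -8.02 to -0.23), so that the value there rests on a single molecule. The control log2 ratio lay between -2.75 and -1.47 in 15 alternatives. The call in both libraries was lost in barcodes under 10000 UMIs and in those under 2% mitochondrial UMIs, where TGF-β1 had 0 UMIs, with a minimum of 50 CPM, which the gene does not reach, and where the counting interval had to lie beyond 2-fold. By quartile of UMIs, its level in control reference cells was 69.0, 102, 136 and 126 CPM from the shallowest to the deepest.

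Some genes higher in the shallow barcodes have no symbol in the files, which was so for 27 of the 81. ENSECAG00000045744 stood at 2335 CPM against 411 in the control (log2 ratio 2.51, 2.45 to 2.56) and at 1097 against 187 in the TGF-β1 library (2.55, 2.48 to 2.63). It had a UMI in 261 of 276 and 139 of 165 shallow barcodes, and the highest barcode held 3.28% and 4.43% of its UMIs. Its level fell with each step in depth, from 4088 CPM in control barcodes under 1000 UMIs through 3821 and 1737 to 1184 with 10000 or more, and in the TGF-β1 barcodes from 3676 through 1953 and 1684 to 902. The decline went on within the reference cells, from 661 CPM in the shallowest quartile to 269.5 (control) and from 318 to 99.4 (TGF-β1) in the deepest. ENSECAG00000059778 stood at 358 CPM against 64.5 (2.47, 2.34 to 2.61) and at 324 against 33.2 (3.28, 3.15 to 3.42), and at 975 and 516 in high-mitochondrial barcodes, where ENSECAG00000045744 stood at 1626 and 1372. What these 2 genes encode is not given in the sources used here.

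Of 22 gene lists with genes among those tested, 12 lay below the all-gene median in both libraries, among them lists of abundant cytosolic and secretory functions. Ribosomal protein genes took 14.8% of UMIs in control shallow barcodes against 17.4% in reference cells and 11.2% against 15.4% in the TGF-β1 library, and 1 of 60 tested genes lay above the all-gene median in each. By depth the TGF-β1 share was 10.1% under 1000 UMIs, 15.4% from 1000, 13.1% from 5000 and 10.7% from 10000, and the control share 13.5%, 14.8%, 14.9% and 14.7%. TGF-β1 shallow barcodes chosen as poor in ribosomal protein RNA held 4.53%, and the others 14.7%. Translation factors took 2.00% against 2.31% and 1.57% against 2.12%, with *EEF1A1*, the elongation factor, at 5522 CPM against 7104 and 3767 against 5330. Glycolysis took 0.722% against 0.953% and 0.706% against 0.945%, with *GAPDH* at 2535 CPM against 3583 and 2723 against 3876. In shallow barcodes under 1000 UMIs the glycolysis share was 0.941% in the control and 1.03% with TGF-β1, the latter above that of reference cells. None of the genes of these 3 lists passed 2-fold in either direction.

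Contractile genes were lower over the pools, though not at every depth. Actin cytoskeleton and contraction genes took 3.95% of UMIs against 4.60% in the control and 4.45% against 6.32% in the TGF-β1 library. By depth, the control share was 5.34% in shallow barcodes under 1000 UMIs, then 4.19%, 4.13% and 3.53% in the deeper bands, and 3.81% in the shallowest quartile of reference cells. With TGF-β1 it was 5.45%, 5.46%, 5.90% and 4.17%, and 6.22% in that quartile. *ACTA2*, smooth muscle actin and the standard marker of activated fibroblasts, stood at 2522 CPM against 3608 (log2 ratio -0.52, -0.57 to -0.47) and at 2763 against 4745 (-0.78, -0.82 to -0.74). *TAGLN*, an actin-binding protein of contractile cells, stood at 3357 against 4603 and at 4134 against 7052. *FLNA*, which crosslinks actin filaments, stood at 502 CPM against 382 and at 483 against 354. *VCL*, which links them to adhesions, stood at 394 against 301 and at 313 against 297, and neither gene passed 2-fold. Genes of translocation into the endoplasmic reticulum took 0.783% against 0.946% and 1.04% against 1.20%, with *SSR4*, part of the translocon complex, at 986 CPM against 1342 and 1041 against 1523. The medians of the ribosomal, translation, glycolysis, actin and translocation lists kept their side of the all-gene median in each of 11 alternatives in both libraries. Their size did not hold. Relative to all genes and in this order, the TGF-β1 medians were -0.65, -0.40, -0.56, -0.55 and -0.28, and at their smallest -0.14, -0.05, -0.12, -0.09 and -0.16. In the control they were -0.38, -0.29, -0.37, -0.40 and -0.40, and at their smallest -0.23, -0.19, -0.29, -0.25 and -0.30.

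**Figure D4:**
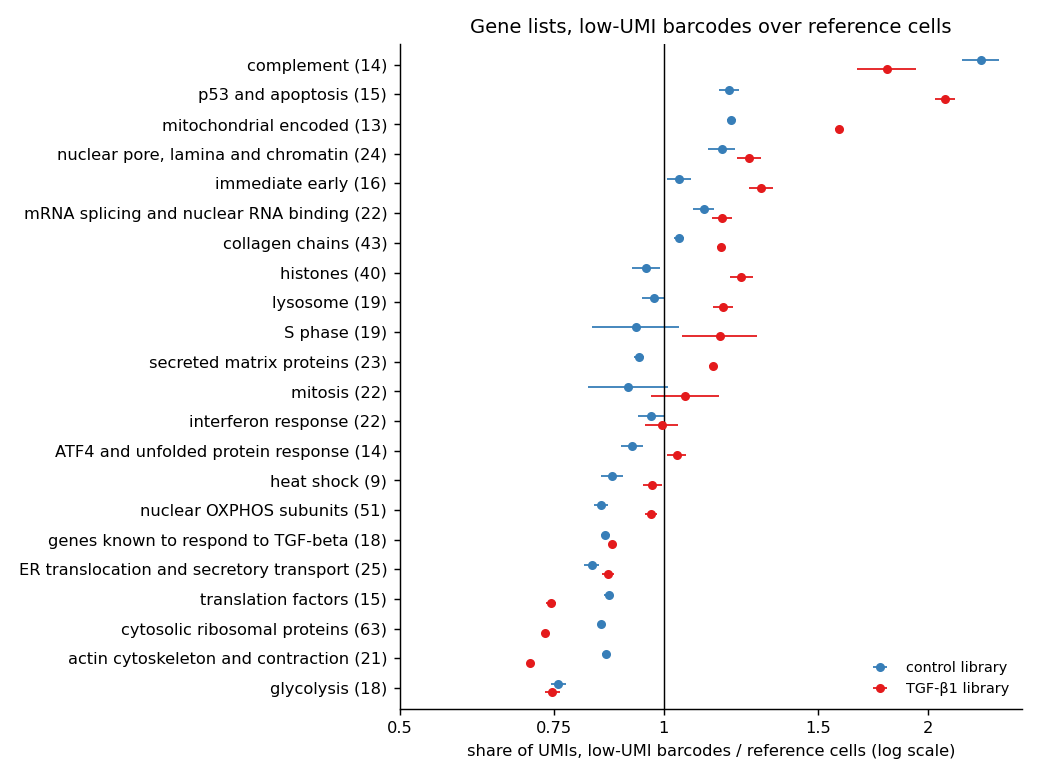
Share of UMIs on each gene list in shallow barcodes over that in reference cells, with counting intervals, for the control and TGF-β1 libraries. All genes of a list found in the files are used, and the all-gene median is not subtracted. Ribosomal, translation, glycolysis and actin lists lie below 1 in both libraries, and collagen chains, complement and p53 lists lie above 1 in both. The list medians in the text are another measure. Of these, the TGF-β1 collagen and complement medians and the control p53 median change side in at least 1 alternative.

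Collagen chains, complement, p53 and apoptosis, immediate early genes and genes of the nuclear pore, lamina and chromatin lay above the all-gene median in both libraries. The list of mitochondrially encoded genes did too, but the rule used those genes. Collagen chains took 1.77% of UMIs against 1.71% in the control and 2.43% against 2.10% in the TGF-β1 library, and 15 and 17 of 20 tested chains lay above the all-gene median. *COL24A1*, a minor fibrillar chain, was at 2.30 CPM against 1.95 in the control on 3 UMIs and at 77.4 against 9.84 in the TGF-β1 library. *COL1A1* was at 5134 against 5608 and at 6034 against 6376. The TGF-β1 collagen median kept its side in 9 of 11 alternatives. Relative to all genes it fell from 0.26 to -0.04 in barcodes under 2% mitochondrial UMIs and to -0.15 without the barcodes poor in ribosomal protein RNA. With the mean of per-barcode CPM, the complement median in TGF-β1 was -0.03 and the p53 median in the control -0.05 relative to all genes. Nuclear pore, lamina and chromatin genes took 0.245% against 0.210% and 0.269% against 0.215%, with *SETD2*, a histone methyltransferase, at 114 CPM against 72.8 and 122 against 81.2. The complement list had 14 genes in the files, of which 5 were tested. The 14 had 1702 UMIs in the control, of which 1013 were of *CFD*, and 655 in TGF-β1, of which 247 were of *CFD* and most of the others of *CLU*, or clusterin. *CLU* stood at 395 CPM against 283 and 258 against 203.

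The remaining lists held mixed values. Histones, lysosome, splicing and S phase genes lay on different sides of the all-gene median in the 2 libraries. In the lysosome list, *CTSK*, a protease that degrades collagen, stood at 119 CPM against 71.0 in the control, where 1 barcode held 37.8% of its UMIs, and at 186 against 62.5 in the TGF-β1 library. Interferon, heat shock, unfolded protein response, oxidative phosphorylation, mitosis, secreted matrix and TGF-β responsive genes lay below it in both libraries, but the interferon, oxidative phosphorylation, mitosis and secreted matrix medians changed side in 1 or 2 alternatives in the TGF-β1 library, and mitosis also in 1 in the control. Among cycling markers *UBE2C* had 22 UMIs in the control and 25 in the TGF-β1 shallow barcodes, of which 11 were in 1 barcode, and *TOP2A* had 12 and 8.

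The TGF-β1 library differed from the control within the shallow barcodes. Over 8047 genes, 439 (5.46%) were more than 2-fold higher and 307 (3.82%) more than 2-fold lower with TGF-β1, while the counts in reference cells of the same libraries were 197 (2.45%) and 184 (2.29%). The shallow pools hold fewer UMIs, and their depth differs between the libraries. Log2 ratios are therefore given also for shallow barcodes under 5000 UMIs and for those of 10000 or more, in this order, as ratios by depth.

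Matrix genes known to respond to TGF-β1 were higher with it. *TGFBI*, a secreted matrix protein named for this response, stood at 279 CPM in the control and 1931 in the TGF-β1 shallow barcodes (log2 ratio 2.79, 2.63 to 2.95), with 2.32 in reference cells, 2.66 under 5000 UMIs and 2.59 with 10000 or more. *FN1*, which encodes fibronectin, stood at 2081 and 8643 CPM (2.05, 1.99 to 2.11), with 1.65 in reference cells, 1.30 under 5000 UMIs and 1.99 in the deeper band. *TIMP1* stood at 2166 and 7960 (1.88), with 1.31 in reference cells, 2.05 and 1.60. *PMEPA1*, an inhibitor of TGF-β signalling that the pathway itself induces, stood at 26.0 and 186 CPM (2.84, 2.32 to 3.40) on 34 and 272 UMIs, with 2.13 in reference cells and ratios by depth of 2.58 and 2.70. *COL12A1* stood at 357 and 1235 CPM (1.79, 1.64 to 1.94), with 1.51 in reference cells. Its ratio in the shallow barcodes moved with depth, being 0.84 under 5000 UMIs and 1.95 with 10000 or more, and it was 0.73 without the barcodes poor in ribosomal protein RNA and 0.52 in those under 2% mitochondrial UMIs.

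Others had smaller ratios in the summed shallow barcodes than in the reference cells. *IGFBP3*, a binding protein of insulin-like growth factors, stood at 6.89 and 85.6 CPM on 9 and 125 UMIs (log2 ratio 3.63, 2.66 to 4.80), with 4.87 in reference cells. Its ratios by depth were 3.08, on 8 control UMIs, and 4.93, on 1. *LOX*, which crosslinks collagen, stood at 101 and 160 CPM (0.66, 0.35 to 0.98), with 1.38 in reference cells and ratios by depth of 0.48 and 0.54. *TAGLN* stood at 3357 and 4134 CPM (0.30, 0.24 to 0.36), with 0.62 in reference cells and ratios by depth of 0.39 and 0.34. *CCN2*, or connective tissue growth factor, stood at 260.3 and 371 CPM (0.51, 0.31 to 0.71), with 0.85 in reference cells. Its ratios by depth were -0.43 (-1.11 to 0.20) and 0.29. *AREG*, an epidermal growth factor receptor ligand, rested on 5 UMIs in the control and 41 in the TGF-β1 barcodes (2.87, 1.54 to 4.57), an interval that holds the 3.29 of reference cells. Under 5000 UMIs it had 0 UMIs in the control, and with 10000 or more its ratio was 1.85.

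Among genes lower with TGF-β1, several rested on few UMIs in the shallow barcodes. *KRT8* had 39 UMIs in the control and 1 in the TGF-β1 barcodes (log2 ratio -5.45, -10.79 to -2.88), with -4.67 in reference cells. *C1R*, the first protease of the classical complement pathway, had 72 and 3 UMIs (-4.75, -7.06 to -3.14), with -3.64 in reference cells and -5.35 with 10000 UMIs or more. Under 5000 UMIs *KRT8* and *C1R* had 0 UMIs in the TGF-β1 barcodes. *CFD* had 1013 and 247 (log2 ratio -2.20), with -2.65 in reference cells and ratios by depth of -3.74 and -2.63. In barcodes under 2% mitochondrial UMIs it was -0.75. *ADM*, the vasodilator adrenomedullin, had 171 and 56 (-1.77, -2.23 to -1.33), with -2.56 in reference cells and ratios by depth of -1.34 and -2.16. *VCAM1*, an adhesion molecule for leukocytes, had 4 UMIs in the control and 0 in the TGF-β1 barcodes, and no fold is given.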

How the data were processed

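The deposited files hold whole-number UMI counts of genes in barcodes that Cell Ranger, run by the authors on EquCab3.0, had kept as cells. Its version is 7.1.0 in the methods but 8.0.1 in the headers. The library totals were 214282770 and 224189951 UMIs. The study's assignment of cells to mares and its doublet calls were not used here, and no doublet caller was run. Rows with the same symbol were summed, which left 21356 genes.

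Counts were summed over the barcodes of each set and library and divided by the total (CPM). Genes averaging 10 CPM or more over the 4 pools were compared as log2 ratios without a pseudocount, a call being a ratio over 2-fold. A pool at 0 counts was set to 3 counts for calls and list medians. Comparisons of detection used barcodes thinned to 1000 UMIs. With 1 library per group there was no test. The count comparison was tested on simulated data. Named genes were those with a symbol, over 2-fold the same way in both libraries, the first 10 each way by the smaller log2 ratio. In addition, at most 2 genes each way of every list and 18 genes for TGF-β1 could be named, as well as cell type markers, and genes described in single barcodes (*GDF15*, *GADD45A*) and the genes without a symbol were chosen after their values were seen, as were the genes given for the barcodes poor in ribosomal protein RNA or without mitochondrial UMIs. The barcodes, lists and limits were chosen with earlier results of these data known. Analyses used Python 3.11.15, numpy 2.4.6, scipy 1.17.1 and pandas 2.3.3.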

Additional observations from a re-analysis of the deposited data

Results flagged for a closer look

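*DLK1*, which encodes a surface protein of immature mesenchymal cells, was 1 of 4 genes among 8047 that were more than 2-fold higher in the shallow barcodes of 1 library and lower in those of the other. For the other 3, *IQGAP2*, *ITGBL1* and *JAG1*, the counting interval of the lower side included 0. In the control *DLK1* had 1 UMI (0.77 CPM against 11.2 in reference cells, log2 ratio -3.87, -9.18 to -1.39). With TGF-β1 it had 41 UMIs (28.1 CPM against 7.21, log2 ratio 1.96, 1.48 to 2.41), with at most 11 in 1 barcode. The difference between the libraries was not tested, since each was 1 library, and the shallow barcodes were deeper in the TGF-β1 library.

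*CDH1* had 16 UMIs in the high-mitochondrial barcodes of the TGF-β1 library (5.82 CPM), which lie outside the shallow barcodes and the reference cells, and 0 in those of the control, which allows up to 2.25 CPM. They lay in 2 barcodes. A barcode of 15316 UMIs with 12.5% on mitochondrial genes held 15 of them, together with 6 of *CDH3*, 2 of *ELF3* and 1 each of *EPCAM*, *KRT8*, *KRT7* and *GRHL2*, and 7 UMIs of fibroblast markers, or 457 CPM.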

How the results depend on the processing

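No analysis paired by mare was made, because cells were not assigned to mares here. Each group was 1 library without replicate numbers, so that no replicate could be left out. The counts of genes higher in the control, lower in the control, higher in TGF-β1, lower in TGF-β1, higher in both and lower in both were 310, 36, 294, 20, 81 and 1. In the same order they were 478, 100, 645, 64, 125 and 3 with the mean of per-barcode CPM, 157, 84, 136, 59, 38 and 7 with median-of-ratios size factors, 55, 4, 42, 3, 20 and 0 with a minimum of 50 CPM, 1010, 244, 1232, 163, 316 and 14 with no minimum, 1291, 223, 1284, 133, 472 and 23 at 1.5-fold, and 77, 4, 100, 0, 22 and 0 where the counting interval had to lie beyond 2-fold. With barcodes under 10000 UMIs only, the first 4 were 474, 108, 516 and 369, and 10 genes were lower in both. With those under 2% mitochondrial UMIs, 86, 101 and 7 were lower in the control, in TGF-β1 and in both. Lower in both were 5 with at least 0.5% mitochondrial UMIs and 2 with at least 1000 UMIs.

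Of the 81 genes higher in both libraries, 38 were among the 38 of the median-of-ratios scaling, 40 among the 125 of the per-barcode mean and 28 among the 82 of barcodes under 10000 UMIs. These alternatives were chosen after seeing the data: without the highest barcode of each gene, 89 genes were lower in the control, 164 higher and 46 lower in TGF-β1, and 40 higher and 5 lower in both. Without barcodes poor in ribosomal protein RNA, 200 were higher and 59 lower in the control, 114 lower in TGF-β1, and 27 higher and 6 lower in both. *HMOX1* in the control changed sign, to -0.51 in barcodes under 10000 UMIs, -0.38 without its highest barcode and -0.25 without the poor barcodes, and *CFD* in TGF-β1 to -0.45 under 10000 UMIs. Of 327 values of named genes against reference cells, these 4 were reversed, 304 stayed over 2-fold and 19 fell under it with the same sign.

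For TGF-β1 over control in shallow barcodes, 439 higher and 307 lower became 710 and 565 with the per-barcode mean, 684 and 999 under 10000 UMIs, and 119 and 93 with a minimum of 50 CPM. There were 590 lower under 2% mitochondrial UMIs and 627 without the poor barcodes. In bands chosen after seeing the data, they were 947 and 1208 under 5000 UMIs, and 732 were higher with 10000 or more. A mitochondrial limit of 2% left 175 control and 107 TGF-β1 shallow barcodes, and a UMI limit of 10000 left 91 in TGF-β1. Thinned to 2000 UMIs, the share with an epithelial UMI was -8.59 percentage points from that of control reference cells, against -4.29 at 1000, and the immune share in TGF-β1 was 9.71 points above, against -0.76 at 1000, which is a change of direction. The counts of lists on either side of the all-gene median moved by less than 1.5 times in all 22 comparisons. Genes at 0 UMIs under an alternative (*KRT8*, *C1R*, *AREG*, *VCAM1*) have no value there. The cause of these shifts was not tested. At 1306367 and 1460654 UMIs, 3 counts correspond to 2.30 and 2.05 CPM, so that ratios of pools at or under these levels, *KRT8* in TGF-β1 among them, are poorly determined.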
